A study of Mus musculus with 7 samples.

Results

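Aminoacyl-tRNA synthetases are the enzymes that load each tRNA with its amino acid, and the genes described here are those enzymes together with the transporters and enzymes that supply amino acids to a growing cell. The members were chosen by name: a gene symbol of 1 capital letter followed by ars, ars1 or ars2, the phenylalanyl subunits Farsa and Farsb, the bifunctional Eprs, the transporters Slc7a5, Slc3a2 and Slc1a5, and Asns, Psat1, Phgdh, Psph, Shmt1, Shmt2 and Mthfd2. The rule itself uses names and no measured value, but it was chosen with earlier results of these data known. Each gene was read from its probe set with the highest mean over the 7 arrays. The rule found 36 genes of the 12393 that had a probe set with a single symbol. They comprise 18 cytosolic synthetases, 8 mitochondrial synthetases, 3 transporters and 7 enzymes of asparagine synthesis, serine synthesis and one-carbon metabolism. These 36 genes had 70 probe sets, and 20 of them had more than 1.

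In most animals each amino acid has a synthetase of the cytosol and one of the mitochondrion, usually from separate genes. Slc7a5 (LAT1) and its partner chain Slc3a2 (CD98) together import leucine and other large neutral amino acids, and Slc1a5 (ASCT2) carries glutamine and other small neutral amino acids. Phgdh, Psat1 and Psph make serine from a glycolytic intermediate, Shmt1 and Shmt2 pass a carbon unit from serine to folate, and Mthfd2 carries that unit onward in the mitochondrion. Activated T cells are known to induce many of these genes, and the transcription factor ATF4 is known to induce them when amino acids run short.

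The arrays measured spleen cells in a mouse model of acute graft-versus-host disease, in which donor T cells attack the recipient. ICOS is a costimulatory receptor of T cells, and ICOSL is its ligand on antigen-presenting cells. All recipients were female C57BL/6 mice, 9 to 12 weeks old, given 10.0 Gy and then, after 4 to 6 h, red-cell-depleted splenocytes by vein. Spleen cells were taken on day 4 from every group. The syngeneic group (1 array) received C57BL/6 splenocytes, and its labels name no antibody. The 3 allogeneic groups (2 arrays each) received splenocytes of C3H/HeN donors and were given control rat IgG (isotype), anti-ICOSL antibody from day 0, or anti-ICOSL antibody from day 3. The antibody was started at 500 µg and continued at 200 µg every other day, and the labels do not say on which day the isotype IgG began. By that schedule the day 3 group had received only its first dose of 500 µg when spleen cells were taken on day 4. Each allogeneic pair of arrays carried RNA combined from several mice, so p-values measure the spread between arrays, which may be technical. Donor strain, alloreactivity and the injection of an antibody or control IgG cannot be told apart in the comparison with the syngeneic array.

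The values are MAS5 signals, a brightness per probe set on a linear scale, and changes are given as differences of log2(signal + 50), which understates changes of dim genes. Probe sets entered the test if any group averaged 99.7 or more, which is the 40th percentile of the signals, and all 36 members passed that filter. One limma model over the 7 arrays gave every comparison, with p-values adjusted by Benjamini and Hochberg over 15372 tested probe sets, and "called" means an adjusted p under 0.05. With a single syngeneic array, its error is borrowed from the spread in the allogeneic groups. Array medians lay between 145.3 and 174.3, and Gapdh signal at the 3′ end over that at the 5′ end was 0.957 on the syngeneic array and 0.767 to 0.865 on the 6 allogeneic arrays, against 0.967 to 1.028 for Actb over all 7. Summed over 17 macrophage genes the signal was 81908 on the syngeneic array and 9917 to 16808 on the allogeneic arrays, over 12 erythroid genes 26867 against 6982 to 11097, and over 14 T cell genes 37528 against 48616 to 60588. Over 11 B cell genes it was 32779 against 14572 to 22227, and over 8 plasma cell genes 70029 against 18649 to 35833. For isotype against syngeneic, 6 of the 8 plasma cell genes had a negative difference and 2 a positive one. No T cell, B cell or macrophage marker stayed below a signal of 50 on all 7 arrays. Markers of the exocrine pancreas, an organ next to the spleen, were also read on every array, at a sum over 18 genes of 7663 on the syngeneic array and 1743 to 4432 on the allogeneic arrays. Fewer cells of a type and less RNA per cell cannot be told apart in such samples, and the part of these differences in the results on the members was not tested.

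RefSeq promoter entries (GRCm38.p6) were matched by symbol to 25 of the 36 members, with 26 promoters in all. The 250 bases before each start were searched on both strands for the core of the ATF4 composite element, TGATGNAA. It stood in 4 of the 26 member promoters (15.4%) and in 3.45% of the 32851 promoters in the table. The 4 promoters belong to Aars, Asns, Gars and Tars, and 150 bases before the start of each are printed 5′ to 3′ on the gene's strand, because they let the signals of genes with that core be set side by side. Capitals mark the core or its reverse complement.
Aars, chr8:111033692-111033841, plus strand: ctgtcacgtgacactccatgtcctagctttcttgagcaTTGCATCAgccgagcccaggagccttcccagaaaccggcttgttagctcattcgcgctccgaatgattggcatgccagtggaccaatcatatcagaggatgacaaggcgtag
Asns, chr6:7693210-7693359, minus strand: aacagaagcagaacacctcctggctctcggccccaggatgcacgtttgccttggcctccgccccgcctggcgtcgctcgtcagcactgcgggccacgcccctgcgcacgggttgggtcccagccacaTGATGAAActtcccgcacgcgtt
Gars, chr6:55037851-55038000, plus strand: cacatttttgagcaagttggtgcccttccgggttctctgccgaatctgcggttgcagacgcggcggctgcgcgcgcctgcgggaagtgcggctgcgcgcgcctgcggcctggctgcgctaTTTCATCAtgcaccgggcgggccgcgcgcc
Tars, chr15:11399659-11399808, minus strand: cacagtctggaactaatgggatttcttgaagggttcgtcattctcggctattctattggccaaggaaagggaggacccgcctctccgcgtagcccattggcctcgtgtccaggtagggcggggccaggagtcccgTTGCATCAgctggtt

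The first base of the core lies 112 bases before the start in Aars, 23 in Asns, 30 in Gars and 15 in Tars. Against the syngeneic array, the mean log2 difference of the isotype arrays was 0.33 for Aars, -0.37 for Asns, 0.69 for Gars and 0.11 for Tars, so these 4 genes did not differ in 1 direction. The other 3 motifs were searched in the same windows, and no match of 1 motif overlapped a match of another. The E-box CACGTG, read by Myc and related factors, stood in 3 of 26 promoters (11.5%, Aars, Farsb and Iars) against 6.02% of all. The gamma-activated sequence core TTCNNNGAA, read by STAT factors, stood in 3 (11.5%, Aars, Kars and Shmt2) against 7.02%. The interferon-stimulated response element core stood in 1 (3.85%, Qars) against 2.98%. A match is a run of letters and not a measured binding site.

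The first comparison set the isotype arrays against the syngeneic array and asks how the members differ in the spleen after an allogeneic transplant. Slc7a5, Wars, Gars, Mthfd2, Psat1 and Phgdh had higher signals on both isotype arrays, by 1.46-fold (Phgdh) to 2.02-fold (Wars), while Slc1a5, Slc3a2 and Asns had lower ones. None of the 36 members was called by limma with Benjamini-Hochberg adjustment (lowest adjusted p = 0.0668), where 6.62% of all tested probe sets were called. At an unadjusted p under 0.05 there were 9 members, beside 23.0% of all tested probe sets. Both isotype arrays lay above the syngeneic array for 17 members and below it for 10, where 38.0% of tested probe sets lay above and 38.8% below. The median log2 difference was 0.13 over the members and -0.01 over all tested probe sets, with members from -1.5 to 1.01.

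Because the 6 allogeneic arrays share the donor strain, their 3 group means were averaged and set against the syngeneic array, a comparison added after the data were seen. Here 2 of 36 members were called, Wars and Slc7a5, both higher, where 9.74% of tested probe sets were called. At an unadjusted p under 0.05 there were 10 members, beside 26.5% of tested probe sets. All 6 allogeneic arrays lay above the syngeneic array for 13 members and below it for 7, where 26.0% of tested probe sets lay above and 26.4% below. Among the 12357 genes outside the list, with 1 probe set each, 25.8% lay above on all 6 arrays. The 13 members were Slc7a5, Mthfd2, Phgdh, Psat1, Psph, Shmt2, Wars, Gars, Cars, Aars, Sars, Nars and Farsa, and the 7 were Slc1a5, Slc3a2, Asns, Hars, Farsb, Rars2 and Tars2. The median log2 difference was 0.12 over the members and 0.01 over all tested probe sets.

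**Figure D1:**
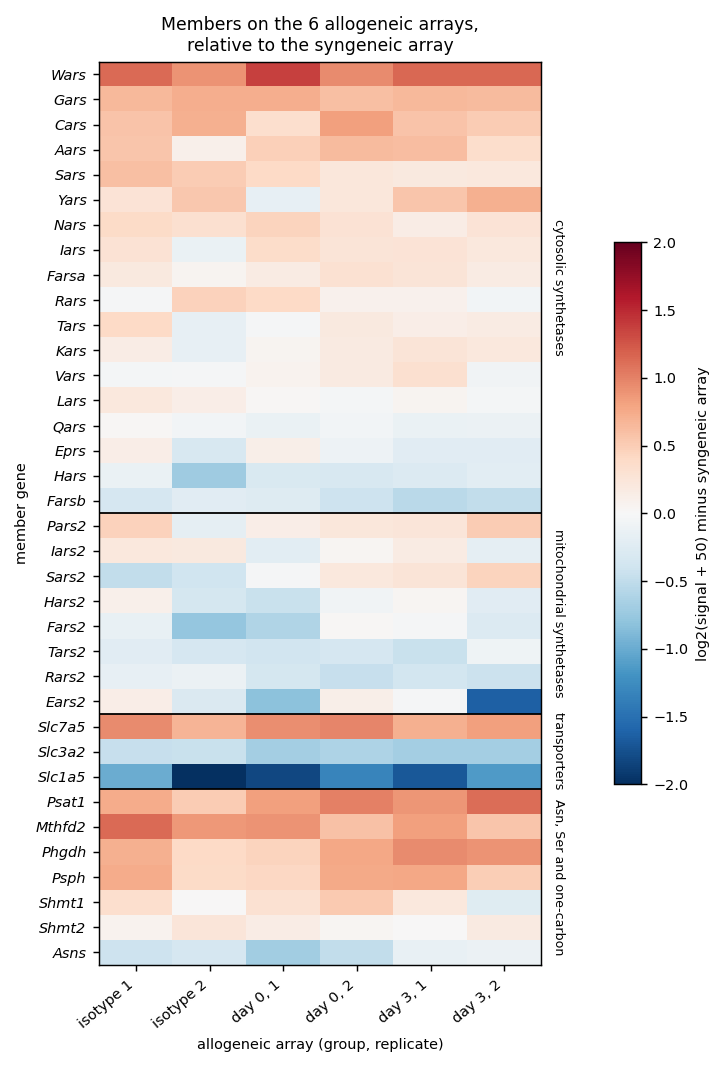
Log2(signal + 50) on each of the 6 allogeneic arrays minus the syngeneic array (colour, red higher and blue lower), with 1 row per member grouped by class and ordered by mean difference within a class. Wars, Gars, Slc7a5, Psat1 and Mthfd2 are red on all 6 arrays, and Slc1a5 and Slc3a2 are blue on all 6.

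The 3 transporters differed from the syngeneic array in opposite directions. Slc7a5, the transport chain of LAT1, had signals of 1267 (syngeneic), 2486 and 2063 (isotype), 2459.6 and 2539 (day 0), and 2104 and 2287 (day 3). Every allogeneic array lay above the syngeneic one, and the isotype mean was 2275 ± 299.0 (SD, n = 2). Its log2 difference was 0.81 ± 0.21 (SE) for isotype against syngeneic (limma, adjusted p = 0.0783) and 0.84 ± 0.19 for the 3 allogeneic groups (adjusted p = 0.0400). Slc7a5 rose in the second of these, by 1.8-fold, and the call was kept without isotype array 2 (adjusted p = 0.0468) and lost when any 1 of the other 5 allogeneic arrays was left out (0.0610 to 0.0892). It was also lost with a pseudocount of 16 (0.0548), no filter (0.0798) and the replicate block (0.0832). Slc3a2, the chain that carries Slc7a5 to the cell surface, had signals of 4015 (syngeneic), 2888 and 2941 (isotype), 2487 and 2592 (day 0), and 2475 and 2489 (day 3). All 6 allogeneic arrays lay below the syngeneic one, with log2 differences of -0.46 ± 0.19 for isotype (adjusted p = 0.213) and -0.60 ± 0.16 for the 3 allogeneic groups (adjusted p = 0.0744). The members of this heterodimer therefore had signals that differed from the syngeneic array in opposite directions, each on 6 of 6 arrays.

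Slc1a5, the glutamine carrier, had signals of 1336 (syngeneic), 647.8 and 295.7 (isotype), 343.6 and 507.0 (day 0), and 379.1 and 582.6 (day 3). Its log2 difference of -1.5 ± 0.47 against the syngeneic array was the lowest of the 36 members (limma, adjusted p = 0.127), and over the 3 allogeneic groups it was -1.49 ± 0.42 (adjusted p = 0.0769). The isotype arrays were more than 2-fold apart, as was true of no other member in that group and of 660 of the 15372 tested probe sets. The difference was -0.99 without isotype array 2 and -2 without isotype array 1. All 17 macrophage markers, 9 of 12 tested neutrophil markers and 6 of 10 tested erythroid markers were called lower in the same comparison. The part of these cells in the signals of Slc1a5 and Slc3a2 was not tested.

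**Figure D2:**
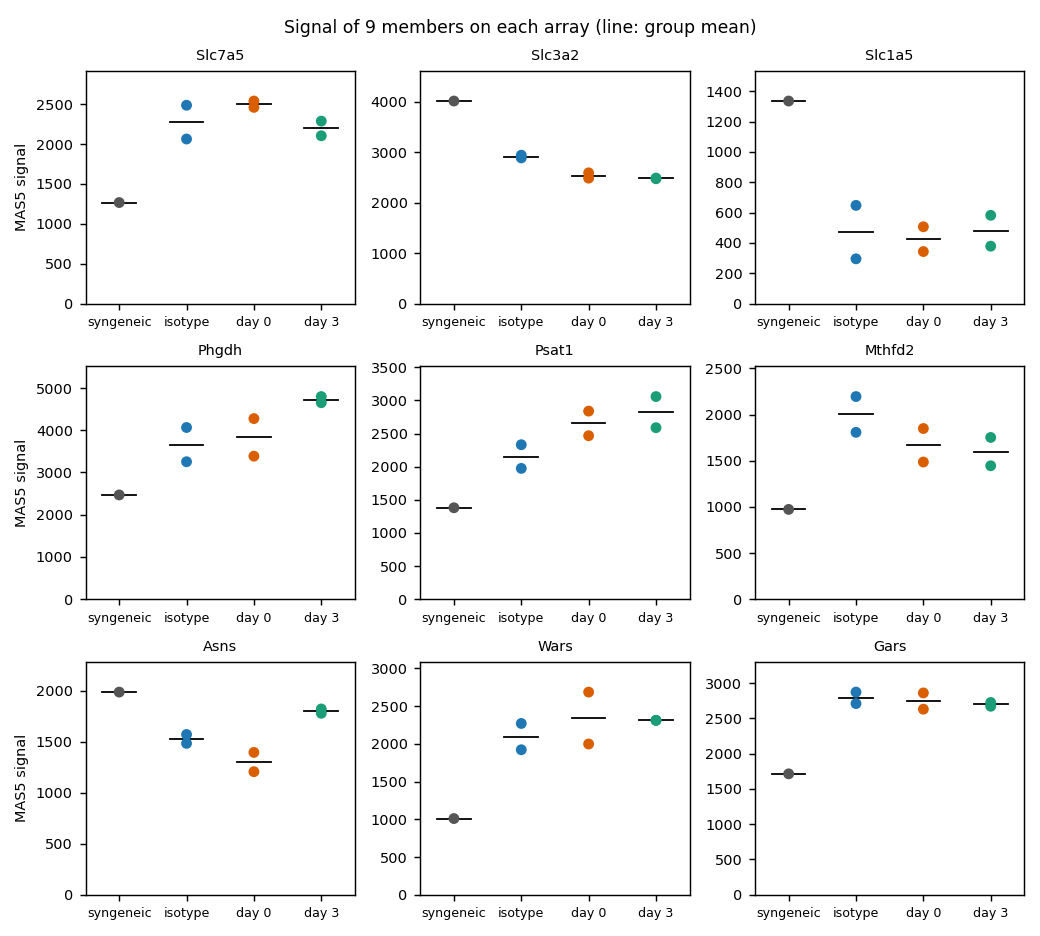
MAS5 signal (vertical axis, linear scale from 0) of 9 members in the 4 groups, with 1 point per array and a line at the group mean. Slc7a5, Wars and Gars lie above the syngeneic array in the 3 allogeneic groups, Slc1a5 and Slc3a2 lie below it, and Asns is lowest on the 2 day 0 arrays.

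The enzymes of the serine pathway had higher signals with the allogeneic transplant, but none was called. Phgdh, its first enzyme, had signals of 2469 (syngeneic), 4065 and 3255 (isotype), 3386.5 and 4276 (day 0), and 4797.5 and 4652 (day 3). Psat1, the second enzyme, had signals of 1380.5 (syngeneic), 2332 and 1975 (isotype), 2468 and 2839 (day 0), and 2589 and 3059 (day 3). Psph, which removes the phosphate in the last step, had signals of 412.2 (syngeneic), 724.6 and 553.6 (isotype), 565.7 and 733.8 (day 0), and 737.4 and 597.1 (day 3). For all 3 genes the 6 allogeneic arrays lay above the syngeneic one, with log2 differences for isotype of 0.55 ± 0.24 (Phgdh, limma adjusted p = 0.246), 0.62 ± 0.23 (Psat1, 0.174) and 0.56 ± 0.27 (Psph, 0.279). Over the 3 allogeneic groups they were 0.70 ± 0.21 (adjusted p = 0.0997), 0.84 ± 0.20 (adjusted p = 0.0504) and 0.59 ± 0.24 (adjusted p = 0.178). All 4 tested probe sets of Phgdh and both of Psat1 were higher than on the syngeneic array in each comparison with it. The 4 of Phgdh are all of the _x_at kind, which can share probes with other transcripts.

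Mthfd2, the mitochondrial dehydrogenase of the one-carbon pathway, had signals of 972.8 (syngeneic), 2195 and 1808 (isotype), 1849 and 1486 (day 0), and 1752 and 1445 (day 3). Its mean was 2001 ± 273.7 on the isotype arrays (SD, n = 2), with a log2 difference from the syngeneic array of 1.00 ± 0.25 (limma, adjusted p = 0.0717) and of 0.81 ± 0.22 over the 3 allogeneic groups (adjusted p = 0.0732). Both probe sets of Mthfd2 differed in this direction. The mitochondrial Shmt2 had signals of 1571 (syngeneic), 1644 and 1866 (isotype), 1740.2 and 1619.9 (day 0), and 1585 and 1777 (day 3), all 6 above the syngeneic array by a log2 difference of 0.11 ± 0.18 (adjusted p = 0.739), a size within its error. Its 4 probe sets differed in sign, and the main one is also of the _x_at kind. The cytosolic Shmt1 had signals of 287.5 (syngeneic), 376.8 and 289.9 (isotype), 368.4 and 432.7 (day 0), and 340.7 and 235.4 (day 3), on both sides of the syngeneic value. The other 3 probe sets of Shmt1 were also higher on the isotype arrays, by log2 differences of 0.39 to 1.12, and none of the 4 was called.

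Asns, which makes asparagine and is a textbook target of ATF4, ran the other way from the serine enzymes. Its signals were 1985 (syngeneic), 1483 and 1570.0 (isotype), 1205 and 1394 (day 0), and 1778 and 1819.9 (day 3). All 6 allogeneic arrays lay below the syngeneic one, and the log2 difference was -0.37 ± 0.20 for isotype (limma, adjusted p = 0.334). Its second probe set was also lower, by -0.73 ± 0.34.

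Among the 18 cytosolic synthetases the median log2 difference was 0.15 for isotype against syngeneic and 0.18 for the 3 allogeneic groups, against -0.01 and 0.01 over all tested probe sets. Wars, the tryptophanyl-tRNA synthetase and a known target of interferon gamma, had signals of 1009.5 (syngeneic), 2269 and 1921 (isotype), 2685 and 1997 (day 0), and 2311 and 2310.2 (day 3). Its log2 difference was 1.01 ± 0.25 for isotype (limma, adjusted p = 0.0668) and 1.11 ± 0.22 for the 3 allogeneic groups (adjusted p = 0.0292), a rise of 2.16-fold in the latter. That call was lost without isotype array 1 (adjusted p = 0.0545) or without either day 3 array (0.0635 for each), and with no filter (0.0613). It also rests on 1 of 4 probe sets. A second probe set of Wars had signals of 978.6 (syngeneic), 363.9 and 510.5 (isotype), 639.3 and 600.6 (day 0) and 535.3 and 635.6 (day 3), lower than syngeneic on all 6 arrays, with a log2 difference of -1.09 ± 0.25 for isotype (adjusted p = 0.0580). The other 2 were 0.20 and 0.37 higher. With the 4 probe sets of Wars averaged, its log2 difference was 0.12 for isotype and 0.26 for the 3 allogeneic groups (adjusted p = 0.318), so the data do not settle a direction for Wars. The probe set read as the main value is of the _x_at kind, which can share probes with other transcripts.

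**Figure D3:**
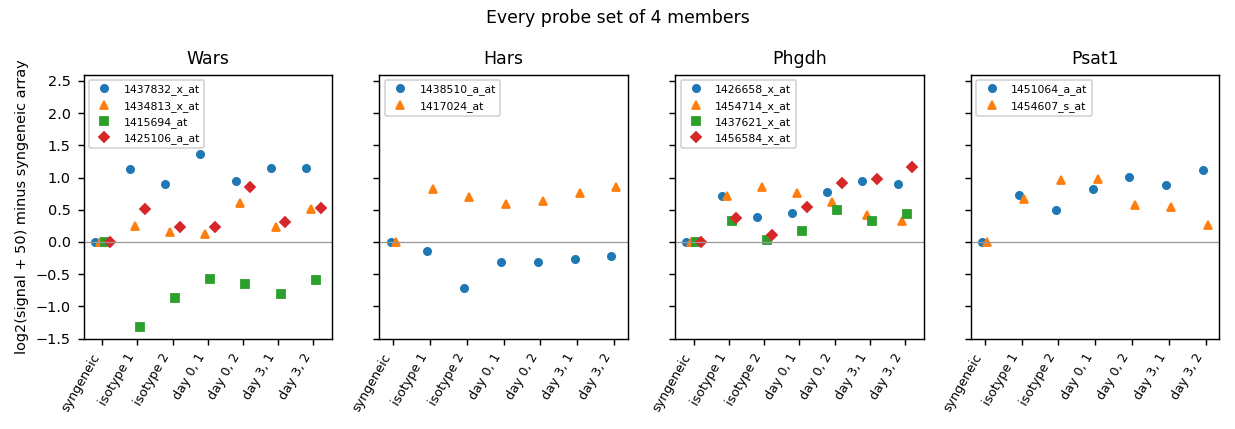
Log2(signal + 50) minus the syngeneic array (vertical axis) for each probe set of Wars, Hars, Phgdh and Psat1 on the 7 arrays (horizontal axis), with 1 symbol per probe set and the syngeneic array at 0 by construction. The probe sets of Wars and of Hars lie on both sides of 0, while all those of Phgdh and Psat1 lie above 0 on the 6 allogeneic arrays.

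Gars, the glycyl-tRNA synthetase that serves both cytosol and mitochondrion, had signals of 1714 (syngeneic), 2709.5 and 2872 (isotype), 2860.5 and 2630.2 (day 0), and 2725 and 2671.5 (day 3). The 6 allogeneic arrays lay within 2630 to 2872 and above the syngeneic one, with a log2 difference of 0.69 ± 0.19 for isotype (limma, adjusted p = 0.0942) and 0.66 ± 0.17 for the 3 allogeneic groups (adjusted p = 0.0605). Cars, which loads cysteine, had signals of 399.9 (syngeneic), 621.0 and 682.6 (isotype), 519.6 and 742.3 (day 0), and 614.5 and 587.5 (day 3). Sars, the seryl-tRNA synthetase, had signals of 2372.5 (syngeneic), 3629.7 and 3397.5 (isotype), 3136 and 2776 (day 0), and 2736 and 2753 (day 3). Their log2 differences for isotype were 0.64 ± 0.25 (Cars, adjusted p = 0.197) and 0.56 ± 0.20 (Sars, adjusted p = 0.160), with all 6 allogeneic arrays above the syngeneic one for both.

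Aars, the alanyl-tRNA synthetase, had signals of 1185 (syngeneic), 1768 and 1276 (isotype), 1661 and 1857 (day 0), and 1845 and 1519 (day 3). Its 6 allogeneic arrays were above the syngeneic one, by a log2 difference of 0.33 ± 0.27 for isotype (limma, adjusted p = 0.518). The second probe set of Aars read 1294 (syngeneic), 1700 and 1165 (isotype), 1026 and 1596 (day 0), and 1842 and 2045 (day 3), on both sides of the syngeneic value. Nars and Farsa, for asparagine and the phenylalanyl alpha subunit, lay above the syngeneic array on all 6 allogeneic arrays, by 0.36 ± 0.20 and 0.12 ± 0.20 for isotype. The second probe set of Nars gave -0.03 ± 0.20 and lay below the syngeneic array on 5 of 6 arrays. Farsb, the beta subunit that forms 1 enzyme with Farsa, had signals of 1369.7 (syngeneic), 1071 and 1166 (isotype), 1134.5 and 1010.2 (day 0), and 923.9 and 963.9 (day 3), all 6 below the syngeneic array, with a log2 difference of -0.28 ± 0.20 for isotype (adjusted p = 0.457). On these probe sets the subunits of phenylalanyl-tRNA synthetase lay on opposite sides of the syngeneic array, by differences that did not pass the test. The other 3 probe sets of Farsb gave -0.42 ± 0.28, -0.08 ± 0.25 and 0.03 ± 0.63, so they differed in sign.

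Hars, the histidyl-tRNA synthetase, had signals of 1321 (syngeneic), 1196 and 788.1 (isotype), 1057 and 1052 (day 0), and 1089.9 and 1131 (day 3) on its main probe set, with a log2 difference of -0.42 ± 0.27 for isotype (limma, adjusted p = 0.411). Its second probe set read 575.5 (syngeneic), 1056 and 966.1 (isotype), 894.7 and 916.8 (day 0), and 1010 and 1085 (day 3). That is 0.76 ± 0.19 higher for isotype (adjusted p = 0.0741) and 0.73 ± 0.17 higher for the 3 allogeneic groups (adjusted p = 0.0486), so the probe sets of Hars disagree in sign. The latter is a call of this probe set close to the threshold, and its dependence on the settings and on single arrays was not examined. The remaining cytosolic synthetases were Yars, Iars, Rars, Tars, Kars, Vars, Lars, Qars and Eprs, with log2 differences for isotype between -0.09 (Eprs) and 0.41 (Yars). Their adjusted p-values were 0.405 or above.

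The 8 mitochondrial synthetases had a median log2 difference of -0.13 for isotype against syngeneic and -0.23 for the 3 allogeneic groups, lower than the medians of the cytosolic class. A test of the difference between the classes was not made. Rars2 and Tars2, for arginine and threonine, lay below the syngeneic array on all 6 allogeneic arrays, by -0.14 ± 0.19 and -0.28 ± 0.22 for isotype. Fars2, the single-chain phenylalanyl enzyme, had signals of 461.9 (syngeneic), 411.3 and 249.0 (isotype), 289.1 and 470.6 (day 0), and 455.6 and 371.7 (day 3). Hars2, Iars2 and Pars2 had log2 differences of -0.12, 0.20 and 0.14 for isotype. Ears2, the glutamyl enzyme, had signals of 152.5 (syngeneic), 171.2 and 115.4 (isotype), 64.6 and 168.6 (day 0), and 150.3 and 15.4 (day 3). The day 3 arrays of Ears2 were more than 2-fold apart, and its standard error of 0.68 for isotype was the widest of the 36 members.

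The intervals limit what can be said of members that did not pass. For isotype against syngeneic, the 95% interval of the log2 difference stayed within 2-fold for 22 of 36 members and reached beyond it for 14. For the 3 allogeneic groups it stayed within 2-fold for 24.

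The antibody comparisons ask whether blocking ICOSL from day 0 or from day 3 shifts the members within the allogeneic groups. None of the 36 was called in any of the 3 comparisons by limma with Benjamini-Hochberg adjustment, and the same was true of all 15372 tested probe sets: 0.00% were called for day 0 against isotype, 0.00% for day 3 against isotype and 0.00% for day 0 against day 3. At an unadjusted p under 0.05 there were 1 member for day 0 against isotype (7.18% of tested probe sets), 1 for day 3 against isotype (10.2%) and 2 for day 0 against day 3 (6.79%). Arrays did not overlap for 3 members higher and 7 lower with day 0 antibody than with isotype, where 19.4% and 16.2% of tested probe sets did so. The counts were 7 higher and 10 lower with day 3 antibody than with isotype, beside 24.3% and 18.8%. Between day 0 and day 3 they were 7 higher and 7 lower with day 0, beside 18.6% and 20.4%. The comparisons of day 0 and day 3 with isotype share the isotype arrays.

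Median log2 differences of the members were -0.01 for day 0 against isotype, 0.02 for day 3 against isotype and 0 for day 0 against day 3. The corresponding medians over all tested probe sets were 0.02, 0.03 and -0.01. The 95% interval stayed within 2-fold for 34, 32 and 33 of the 36 members in these comparisons. Ears2 and Slc1a5 reached beyond 2-fold in all 3, joined by Fars2 and Sars2 for day 3 against isotype and by Yars for day 0 against day 3. For the other members, each taken alone, these arrays therefore limit the log2 difference on the probe set read to less than 2-fold at that level. That limit applies to the signal with the pseudocount added. For dim members, such as Iars2 and Shmt1, the signal itself could differ by more than 2-fold within such an interval. Smaller shifts could not be told from array spread. The limit concerns arrays of combined RNA and not single mice, and it does not cover other probe sets of a member. For example, 1 other probe set of Qars read 281.5 and 245.0 (isotype) and 488.6 and 835.4 (day 3).

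**Figure D4:**
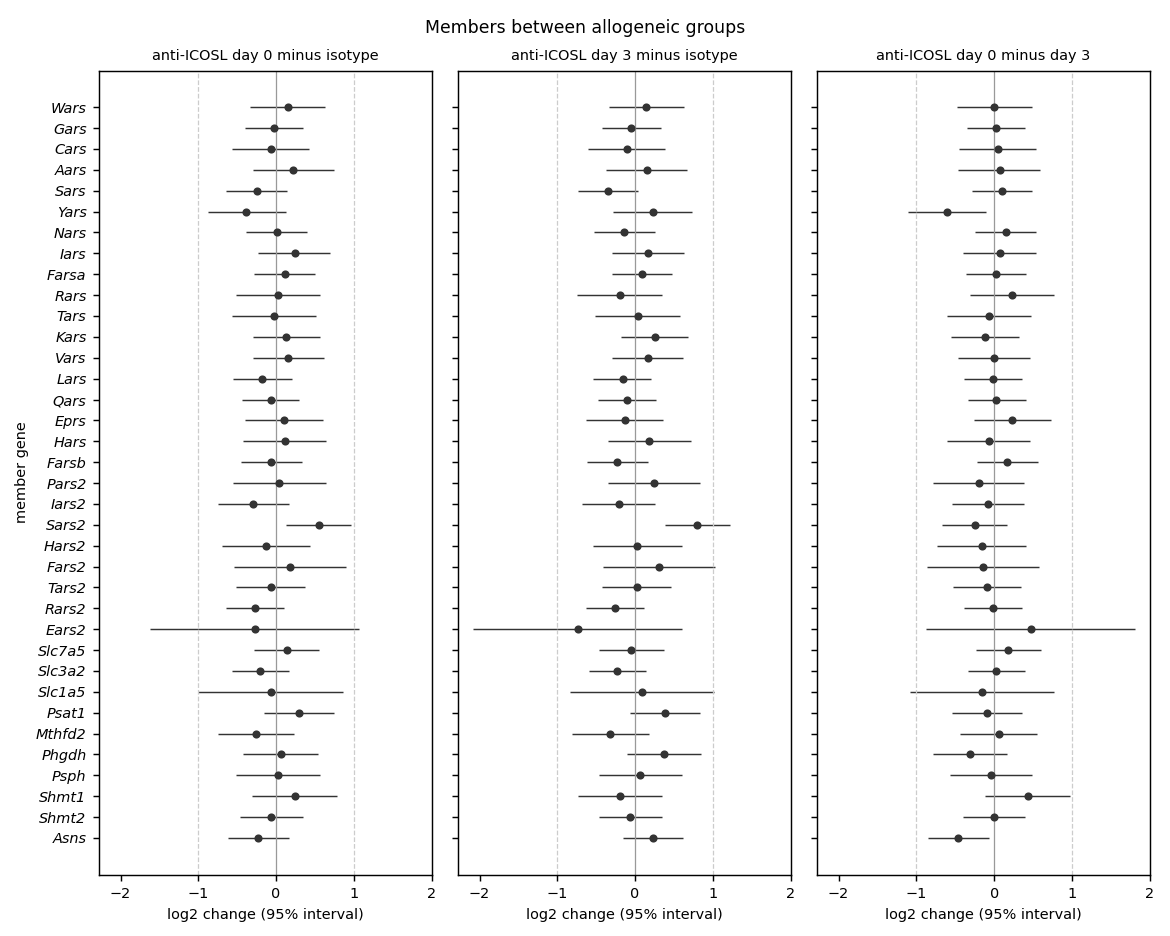
Log2 difference (horizontal axis) of each of the 36 members (vertical axis) with its 95% interval in the 3 comparisons among allogeneic groups, with dashed lines at 2-fold. Most intervals cross 0, and those of Sars2 against isotype and of Asns and Yars between day 0 and day 3 do not.

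Sars2, the mitochondrial seryl-tRNA synthetase, had the largest positive difference from isotype with either schedule. Its signals were 342.9 (syngeneic), 228.3 and 247.1 (isotype), 338.4 and 404.0 (day 0), and 419.5 and 482.6 (day 3). The isotype arrays of Sars2 were the lowest 2 of the 7, and the 4 anti-ICOSL arrays lay near or above the syngeneic value. The log2 difference was 0.55 ± 0.17 for day 0 (limma, unadjusted p = 0.0183, adjusted p = 0.612) and 0.80 ± 0.17 for day 3 (unadjusted p = 0.00316, adjusted p = 0.364). Both comparisons rest on the same isotype arrays, and neither passed.

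Asns and Yars differed between the antibody schedules before adjustment and not after it. Asns was lower with day 0 than with day 3 antibody by a log2 difference of -0.46 ± 0.16 (limma, adjusted p = 0.699), with means of 1300 ± 133.6 and 1799 ± 29.8 (SD, n = 2). Against isotype it was -0.23 ± 0.16 for day 0 and 0.23 ± 0.16 for day 3, and the second probe set of Asns was 0.40 ± 0.28 and 0.53 ± 0.28. Yars, the tyrosyl-tRNA synthetase, had signals of 834.1 (syngeneic), 1014 and 1239 (isotype), 735.5 and 986.1 (day 0), and 1243 and 1402 (day 3). It was lower with day 0 than with day 3 antibody by -0.60 ± 0.21 (adjusted p = 0.689).

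The serine enzymes had positive differences from isotype with day 3 antibody that did not pass the test. Psat1 differed by 0.30 ± 0.19 for day 0 and 0.38 ± 0.19 for day 3 (limma, adjusted p = 0.806 and 0.538). Phgdh differed by 0.06 ± 0.20 and 0.37 ± 0.20 (adjusted p = 0.964 and 0.561), and Psph by 0.02 ± 0.22 and 0.06 ± 0.22. The other 3 probe sets of Phgdh gave 0.48, 0.16 and -0.09 for day 0 and 0.83, 0.20 and -0.41 for day 3. The second probe set of Psat1 gave -0.04 ± 0.22 and -0.42 ± 0.22, so the probe sets of Phgdh and of Psat1 disagree in sign here. Mthfd2 was lower than isotype by -0.26 ± 0.20 and -0.32 ± 0.20 (adjusted p = 0.849 and 0.631), with arrays that overlapped for day 0 and did not for day 3.

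Slc7a5 and Wars, the members called over the 3 allogeneic groups, differed little between antibody groups. Slc7a5 differed from isotype by 0.14 ± 0.17 for day 0 and -0.05 ± 0.17 for day 3, and Wars by 0.15 ± 0.20 and 0.14 ± 0.20, with all 4 intervals inside 2-fold. Slc3a2 differed by -0.20 ± 0.15 and -0.23 ± 0.15, with both antibody groups below both isotype arrays. Sars differed by -0.25 ± 0.16 and -0.35 ± 0.16, and Rars2 by -0.27 ± 0.16 and -0.26 ± 0.16, again with arrays that did not overlap in either comparison. Rars2 had signals of 1046 (syngeneic), 928.2 and 964.1 (isotype), 804.6 and 748.0 (day 0), and 803.4 and 766.1 (day 3).

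Other members were among the largest differences of 1 comparison without passing. For day 0 against isotype these were Iars (0.24 ± 0.19), Aars (0.22 ± 0.22), Shmt1 (0.24 ± 0.23), Vars (0.16 ± 0.19) and Iars2 (-0.29 ± 0.19). For day 3 against isotype they were Kars (0.25 ± 0.18), Pars2 (0.24 ± 0.25), Fars2 (0.31 ± 0.30), Farsb (-0.23 ± 0.16) and Ears2 (-0.74 ± 0.56). For day 0 against day 3 they were Ears2 (0.47 ± 0.56), Shmt1 (0.43 ± 0.23), Eprs (0.23 ± 0.21), Rars (0.23 ± 0.23), Farsb (0.17 ± 0.16), Nars (0.15 ± 0.16) and Pars2 (-0.20 ± 0.25). In limma with Benjamini-Hochberg adjustment every one of these had an adjusted p of 0.655 or above.

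Signals by array show how far the groups overlapped for these members. Iars, the isoleucyl enzyme, had signals of 1260.1 (syngeneic), 1546 and 1146 (isotype), 1639 and 1517 (day 0), and 1533 and 1464 (day 3), and its isotype arrays lay on both sides of the syngeneic value. Vars, for valine, had signals of 2077.5 (syngeneic), 2020.2 and 2040.4 (isotype), 2193 and 2359 (day 0), and 2615 and 1972 (day 3). Kars, which serves cytosol and mitochondrion from 1 gene, had signals of 1584 (syngeneic), 1762 and 1404 (isotype), 1654 and 1805 (day 0), and 1904 and 1848 (day 3). For Iars and Kars the second isotype array was the lowest of the 7, and for Vars a day 3 array was.

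Rars, for arginine, had signals of 1426 (syngeneic), 1401 and 1989 (isotype), 1900.0 and 1519.5 (day 0), and 1513 and 1375 (day 3). Nars, for asparagine, had signals of 2389 (syngeneic), 3144 and 2999 (isotype), 3264 and 2922 (day 0), and 2651 and 2912 (day 3). Eprs, which joins the glutamyl and prolyl enzymes in 1 chain, had signals of 936.4 (syngeneic), 1032 and 743.2 (isotype), 1022 and 870.0 (day 0), and 797.4 and 791.1 (day 3). The isotype arrays bracketed the 4 anti-ICOSL arrays for Eprs and the 2 day 0 arrays for Rars, while for Nars both isotype arrays lay above both day 3 arrays.

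Iars2, the mitochondrial isoleucyl enzyme, had signals of 153.7 (syngeneic), 185.3 and 183.6 (isotype), 125.4 and 159.8 (day 0), and 177.3 and 130.2 (day 3), with both isotype arrays above all others. Pars2, the mitochondrial prolyl enzyme, had signals of 237.1 (syngeneic), 343.1 and 203.7 (isotype), 264.6 and 286.3 (day 0), and 291.4 and 360.0 (day 3), with the highest and the lowest of its allogeneic values in the day 3 and isotype groups. The other members ran over all 7 arrays from 1082 to 1300.1 for Lars, 1619.5 to 1806 for Qars, 621.9 to 938.1 for Tars, 699.4 to 873.3 for Farsa, 271.9 to 419.9 for Hars2 and 426.8 to 596.5 for Tars2.

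In the same arrays the summed macrophage signal was 10577 and 9917 with isotype, 16520 and 16808 with day 0 antibody, and 15046 and 13674 with day 3 antibody. The summed B cell signal, over 11 genes, was 22227 and 20380 with isotype and 14572 to 15577 on the 4 anti-ICOSL arrays. Between the antibody schedules, all 10 tested erythroid markers were lower on both day 0 arrays than on both day 3 arrays, with a median log2 difference of -0.65 and sums over 12 genes of 7317 and 6982 against 10042 and 11097. The summed plasma cell signal, over 8 genes, was 21796 and 22216 with day 0 antibody and 35684 and 35833 with day 3 antibody. The median log2 difference of those 8 genes was only -0.10, with genes from -2.33 to 0.86, 6 of them negative and 2 positive. For the exocrine pancreas the sum over 18 genes was 4432 and 4250 with isotype, 1743 and 2502 with day 0 antibody, and 2610 and 3028 with day 3 antibody. No marker of these cell types or of the pancreas was called in an antibody comparison. The part of these cells in the values of the members was not tested.

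Genes around the members were read from lists of the pathway. The 4 genes of the synthetase complex scaffold and tRNA export (Aimp1, Aimp2, Eef1e1 and Xpot) had log2 differences of -0.12 to 0.31 for isotype against syngeneic, and none was called. Of 18 tested genes of the ATF4 pathway, 13 tested genes of the Myc and mTORC1 inputs and 22 tested translation factors, none was called in that comparison, with medians of 0.05, -0.09 and 0.21 beside -0.01 over all tested probe sets. The unadjusted p was under 0.05 for 2, 2 and 1 of them in limma, beside 23.0% of all tested probe sets. Atf4 itself differed by 0.10 ± 0.24 (adjusted p = 0.841) and Myc by -0.77 ± 0.21 (adjusted p = 0.0925). These genes were chosen for mention after their values were seen.

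A list of enzymes around amino acid breakdown held 11 tested genes. For isotype against syngeneic 3 of them rose, Bcat1, Il4i1 and Arg1, and 1 fell, Glul, where 6.62% of all tested probe sets were called. Glul does not break an amino acid down but makes glutamine. Bcat1, the cytosolic transaminase of leucine, isoleucine and valine, had signals of 111.3 (syngeneic), 822.0 and 850.7 (isotype), 617.8 and 697.5 (day 0), and 746.5 and 705.6 (day 3). It rose by a log2 difference of 2.46 ± 0.20 (limma, adjusted p = 0.00267), and the call was kept under every alternative run, with adjusted p-values up to 0.0280. Il4i1, a secreted oxidase of aromatic amino acids, had signals of 15.7 (syngeneic), 121.9 and 139.1 (isotype), 152.4 and 183.1 (day 0), and 179.9 and 187.9 (day 3). It rose by 1.46 ± 0.20 (adjusted p = 0.0130), a call lost without isotype array 2 (adjusted p = 0.0549) or with the compared groups fitted alone (0.0698).

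Arg1, the arginase that splits arginine, had signals of 5.3 (syngeneic), 58.2 and 57 (isotype), 329.8 and 295.4 (day 0), and 304.0 and 332.0 (day 3). It rose by 0.96 ± 0.19 for isotype against syngeneic (limma, adjusted p = 0.0390), a call lost when any 1 of the 6 allogeneic arrays was left out (0.0712 to 0.104). It was also lost with a pseudocount of 100 (0.106), no filter (0.0804), the replicate block (0.0820), the compared groups alone (0.147) and trended robust variances (0.0884). With antibody it was higher still on all 4 arrays, by 1.75 ± 0.16 for day 0 and 1.77 ± 0.16 for day 3 against isotype, with adjusted p-values of 0.0853 and 0.145. The low signals on the syngeneic and isotype arrays mean that the pseudocount sets much of these values. Glul had signals of 1039 (syngeneic), 306.0 and 479.2 (isotype), 369.8 and 396.5 (day 0), and 360.0 and 375.6 (day 3). It fell by 1.33 ± 0.27 on the log2 scale (adjusted p = 0.0406), and the call was kept without isotype array 2 and lost without any 1 of the other 5 allogeneic arrays (0.0745 to 0.0878). It was lost too with a pseudocount of 16 (0.0640), no filter (0.0826), the replicate block (0.0507) and the compared groups alone (0.132).

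**Figure D5:**
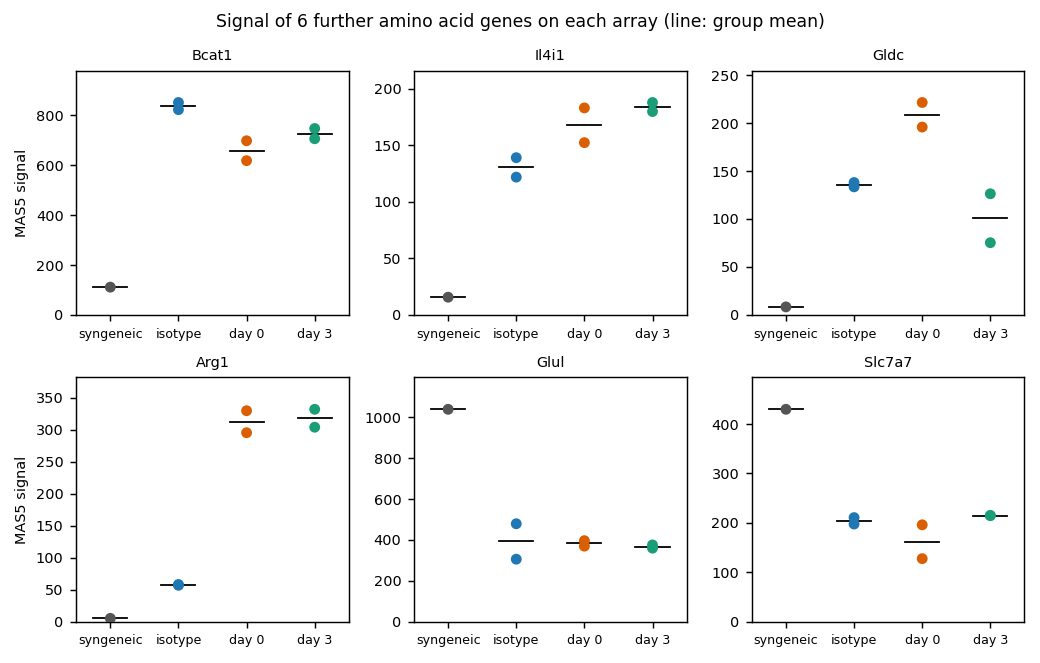
MAS5 signal (vertical axis, linear scale from 0) of 6 genes of amino acid breakdown, the glycine cleavage system and amino acid transport in the 4 groups, with 1 point per array and a line at the group mean. Bcat1, Il4i1, Gldc and Arg1 are higher on all 6 allogeneic arrays than on the syngeneic one, Glul and Slc7a7 are lower, and Arg1 lies at 295.4 or above on the 4 anti-ICOSL arrays.

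Of 6 tested genes of the folate and one-carbon cycle outside the member list, 1 was called, again beside 6.62% of all tested probe sets. Gldc, the glycine decarboxylase of the glycine cleavage system, had signals of 8.4 (syngeneic), 133.5 and 138.0 (isotype), 221.4 and 195.8 (day 0), and 126.3 and 75.3 (day 3). It rose by 1.67 ± 0.26 for isotype against syngeneic (limma, adjusted p = 0.0172), a call lost without either isotype array (0.0638 and 0.0680) and with the compared groups alone (0.0531). Of 8 other amino acid transporters tested, none was called for isotype against syngeneic. Slc7a7, an exporter of cationic amino acids, fell by 0.99 ± 0.22 on the log2 scale over the 3 allogeneic groups (adjusted p = 0.0401), with signals of 429.8 (syngeneic), 210.7 and 197.7 (isotype), 196.1 and 127.7 (day 0), and 215.1 and 214.7 (day 3), and the call was lost without 5 of the 6 allogeneic arrays (0.0528 to 0.0820). It was also lost with a pseudocount of 16 (0.0578), no filter (0.0797), quantile normalization (0.0635), median centring (0.0562) and the replicate block (0.0859). In that comparison Bcat1, Il4i1, Arg1 and Gldc rose and Glul fell as well, with adjusted p-values of 0.00173 to 0.0218, and leaving out either day 0 array lost the call for Glul (0.0606 and 0.0567). No gene of these 7 lists was called in a comparison among the allogeneic groups. In the same isotype comparison all 17 macrophage markers were called lower. Of 14 tested T cell markers 11 had a positive difference and 5 were called higher, and of 21 proliferation genes all 21 had a difference of 0 or above, with a median of 0.83, and 5 were called higher. The part of these genes in the calls was not tested.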

How the data were processed

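The authors deposited MAS5 signal intensities, 1 unlogged value per probe set and array; the submitters' processing notes give no version. The 2% trimmed mean was 500.18 to 500.19 on all 7 arrays. Control probe sets (64) were removed, and 22626 remained. Symbols came from the platform annotation: 20380 probe sets had 1 symbol, 691 several and 1555 none, and 20351 gene IDs matched the RefSeq table.

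log2(signal + 50) was fitted with limma 3.58.1 in R 4.3.3 as group means over all 7 arrays, with 3 residual and 3.36 prior degrees of freedom, and tests were two-sided. The fit was tested on simulated data. Each member with a called value, or among the 8 highest and 5 lowest of a comparison, is given by array, and 8 members always. The members, lists and this rule were chosen with earlier results of these data known. Alternatives were a pseudocount of 16 or 100, no filter or one at the 60th percentile, median centring or quantile normalization, the replicate as block, fitting the compared groups alone, trended robust variances, the mean of all probe sets, and leaving out each array. The number of arrays limits precision. Replicate numbers did not pair the arrays: deviations of same-numbered arrays correlated at -0.01, 0.07 and 0.04. No sequence is printed for members without a promoter entry.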

Additional observations from a re-analysis of the deposited data

How the results depend on the processing

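The number of members called moved with the settings. For isotype against syngeneic, 0 members were called in the main analysis, 2 with a pseudocount of 100 (Mthfd2 and Wars), 4 with the filter at the 60th percentile (Gars, Mthfd2, Slc7a5 and Wars), 7 with trended robust variances (those 4 with Psat1, Sars and Slc1a5) and 2 with the mean of all probe sets (Mthfd2 and Psat1). Over the 3 allogeneic groups, against 2, there were 1 with a pseudocount of 16, 6 with 100, 8 with the 60th percentile, 0 without a filter, 8 with trended robust variances, 5 with the mean of all probe sets, and 0 to 2 with 1 array left out. Among all probe sets, calls for isotype against syngeneic numbered 1017 of 15372, 1277 with a pseudocount of 100, 1616 of 10382 with the 60th percentile, 542 of 22626 without a filter, 1786 with trended robust variances, 882 of 9677 with the mean of all probe sets, 311 with the compared groups alone, and 409 to 708 with 1 array left out. Over the 3 allogeneic groups there were 1498, 1206 with a pseudocount of 16, 1817 with 100, 2143 of 10382 with the 60th percentile, 837 of 22626 without a filter, 2337 with trended robust variances, 1253 of 9677 with the mean of all probe sets and 909 to 1204 with 1 array left out. Numbers did not pair the arrays, and with the replicate block 640 probe sets and no member were called for isotype against syngeneic, and 946 probe sets and 1 member (Wars) over the 3 allogeneic groups. In the antibody comparisons no member was called under any alternative.

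The median of the members moved to 0.22 for isotype against syngeneic, -0.08 for day 3 against isotype and 0.05 for day 0 against day 3 with median centring. With 1 array left out it ran from -0.01 to 0.20 for isotype against syngeneic, -0.12 to 0.12 for day 0 against isotype and -0.09 to 0.09 for day 3 against isotype. With all probe sets averaged the sign turned for Hars for isotype against syngeneic (0.17), Shmt2 over the 3 allogeneic groups (-0.09), Asns and Fars2 for day 0 against isotype (0.08 and -0.05), Psat1 for day 3 against isotype (-0.02), and Eprs, Farsb and Psat1 for day 0 against day 3 (-0.09, -0.02 and 0.14); Slc1a5 turned for day 3 against isotype with median centring (-0.02). None of these was called either way, and the cause was not tested. With 1 array left out, differences that crossed 0 ran, for day 0 against isotype, from -0.58 to 0.44 (Slc1a5), -0.01 to 0.45 (Aars), -0.13 to 0.49 (Fars2), -0.10 to 0.23 (Phgdh), -0.15 to 0.03 (Shmt2), -0.74 to 0.19 (Ears2) and -0.06 to 0.36 (Wars). For day 3 against isotype they ran from -0.42 to 0.59 (Slc1a5), -0.18 to 0.09 (Slc7a5), -0.07 to 0.56 (Pars2), -0.15 to 0.03 (Shmt2) and -1.55 to 0.07 (Ears2). For day 0 against day 3 they ran from -0.10 to 0.21 (Mthfd2), -0.20 to 0.03 (Psat1), -0.43 to 0.13 (Slc1a5) and -0.34 to 1.27 (Ears2).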

Other observations

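Probe sets of 1 member often disagreed. Of the 16 members with at least 2 tested probe sets, all probe sets had the same sign for isotype against syngeneic in 9, of which 7 were higher (Aars, Iars, Mthfd2, Phgdh, Psat1, Sars and Shmt1) and 2 lower (Asns and Eprs). In the other 7 (Farsb, Hars, Nars, Qars, Shmt2, Tars2 and Wars) the signs differed. Of the 64 tested probe sets of members, 1 was called for isotype against syngeneic, where 6.62% of all tested probe sets were. It belongs to Eprs and is not the one with the highest mean. Its signals were 387.2 (syngeneic), 100.5 and 145.6 (isotype), 193.2 and 237 (day 0), and 268.3 and 304.7 (day 3). It fell by 1.35 ± 0.25 on the log2 scale for isotype (limma, adjusted p = 0.0288), and on the main probe set of Eprs the difference was -0.09 ± 0.25. This probe set was chosen after its values were seen, and the dependence of its call on the settings and on single arrays was not examined.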
